A study of Homo sapiens with 4 samples.

Results

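The expression of 38 genes of the NF-kB pathway was described in Huh7 and HepG2 cells, both established human liver tumour cell lines, which had received either NC-siRNA, a negative control, or COP1-siRNA, which targets the ubiquitin ligase COP1, each at 20 nM. The transfection lasted 5 h, and RNA was collected 48 h later. The cells were otherwise labelled wild type, no cytokine or other inflammatory stimulus is named for any group, and all libraries carry the same batch label. There was 1 library of polyadenylated RNA for each line and siRNA, 4 libraries in all, so no difference given here has a replicate check, no test was run and no p-value is given. The 38 genes were taken from a list of NF-kB subunits, inhibitors, regulators and classical target genes, and all 38 were found by their NCBI Gene numbers among the 46427 gene numbers of the tables.

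NF-kB is a family of transcription factors built as dimers of the subunits RELA, RELB, REL, NFKB1 and NFKB2. In resting cells, inhibitors of the IkB family hold the dimers in the cytoplasm. Signals from receptors of the TNF, interleukin and toll-like families activate IkB kinases, the inhibitor is degraded, and the dimers enter the nucleus and switch on chemokine, adhesion and survival genes together with their own inhibitors. In the liver the pathway is known for the acute inflammatory response and for protecting hepatocytes from death by TNF.

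Levels are given in TPM, a unit that corrects for gene length and sums to the same total in each library. A fold change with COP1-siRNA is the log2 ratio of the TPM of the COP1-siRNA library to that of the NC-siRNA library of the same line, after adding 1 to both, a scale that understates the change of genes at a low level. A gene entered a comparison if it had at least 1 TPM in at least 1 of its libraries, and a gene is said to have risen or fallen only past 1.5-fold or 2-fold, as stated. In Huh7 cells the targeted gene, COP1, measured 19.7 TPM in the NC-siRNA library against 6.18 TPM in the COP1-siRNA library, 31.4% of the control level. In HepG2 cells it was at 26.9 and 16.1 TPM, 59.9% of the control level, so COP1 transcript was less reduced in HepG2. Coverage divided by FPKM, a measure of relative depth, was 6.59 and 7.47 in Huh7 and 5.75 and 7.31 in HepG2 with NC-siRNA and COP1-siRNA, and the number of reads behind a value is unknown. All 8 hepatocyte markers examined reached 1 TPM in every library. Their summed level was 17849 and 15778 TPM in Huh7 against 2665 and 3067 TPM in HepG2.

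The promoters of the chemokine genes are shown first, because these genes carried the widest differences in level described further on. NF-kB dimers bind a short motif, and the NF-kB consensus motif was searched on both strands, overlapping matches included, in the 250 bases before the annotated start of each gene (RefSeq, GRCh38.p14). Of the 38 genes, 32 had a promoter entry, and CCL2, NFKBIE, CSF1, IER3, LIF and RELB did not. The consensus was present in 16 of the 32 promoters (50.0%) and in 2614 of all 27305 promoters (9.57%). Shown are bases 120 to 21 before the start of the 6 CXCL genes of chromosome 4, of CCL20 and of NFKBIA, 5′ to 3′ on the strand of the gene. Capitals mark the match and, in CXCL8, the letters it shares with its neighbours.
CXCL1: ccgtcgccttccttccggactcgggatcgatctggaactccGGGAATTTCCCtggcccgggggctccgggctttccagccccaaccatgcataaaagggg
CXCL2: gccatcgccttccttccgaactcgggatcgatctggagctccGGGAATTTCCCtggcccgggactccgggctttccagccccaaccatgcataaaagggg
CXCL3: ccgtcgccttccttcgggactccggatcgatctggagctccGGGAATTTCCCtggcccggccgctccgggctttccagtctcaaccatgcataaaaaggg
CXCL5: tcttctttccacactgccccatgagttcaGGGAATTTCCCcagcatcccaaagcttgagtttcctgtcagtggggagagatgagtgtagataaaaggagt
CXCL6: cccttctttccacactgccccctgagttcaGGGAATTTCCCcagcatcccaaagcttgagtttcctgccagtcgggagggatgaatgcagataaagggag
CXCL8: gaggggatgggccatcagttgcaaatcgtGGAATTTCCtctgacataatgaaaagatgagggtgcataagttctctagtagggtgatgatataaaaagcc
CCL20: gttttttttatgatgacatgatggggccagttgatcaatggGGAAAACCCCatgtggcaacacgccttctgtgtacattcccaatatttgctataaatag
NFKBIA: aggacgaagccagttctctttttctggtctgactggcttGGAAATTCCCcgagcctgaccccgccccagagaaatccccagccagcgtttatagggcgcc

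These windows lie at CXCL1 chr4:73869273-73869372 (plus strand), CXCL2 chr4:74099216-74099315 (minus strand), CXCL3 chr4:74038710-74038809 (minus strand), CXCL5 chr4:73998698-73998797 (minus strand), CXCL6 chr4:73836558-73836657 (plus strand) and CXCL8 chr4:73740449-73740548 (plus strand). The other windows are CCL20 chr2:227813722-227813821 (plus strand) and NFKBIA chr14:35404770-35404869 (minus strand). CXCL1, CXCL2, CXCL3, CXCL5 and CXCL6 shared the 10 bases GGGAATTTCC, which began 79, 78, 79, 91 and 90 bases before their starts. CXCL8 had no match to the full consensus. It held the last 9 of these bases, GGAATTTCC, 91 bases before its start, and these 9 were present in 0.428% of all promoters. The 10 shared bases, chosen after the sequences were read, stood on either strand of 43 of the 27305 promoters (0.157%) and of 10 of the 32 promoters of the gene list. Of the latter, the CXCL promoters had to hold these bases, which were taken from them. The others were those of REL, NFKB1, NFKBIA, NFKBIZ and TNFRSF9. In REL and NFKBIA the copy ran on the opposite strand. In CCL20 the match, shown as GGAAAACCCC, likewise ran on the opposite strand. A match describes the letters of the window and was not tested as a binding site.

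With COP1-siRNA, no gene of the list reached 2-fold in either line on the scale with 1 added to the TPM. Without the added 1, the ratio of COP1-siRNA to NC-siRNA was 2.21 for CXCL8 in HepG2 and 2.58 for TNFRSF9 in Huh7. LTB in Huh7 was 2.77 times as high with NC-siRNA as with COP1-siRNA. In Huh7 cells, 34 of the 38 genes passed the minimum, and TRAF1, CCL2, LIF and CD83 did not. None of the 34 was 2-fold higher or lower, where 0.638% of the 13000 genes examined were higher and 0.446% lower. In HepG2 cells 28 genes passed, and TRAF1, IKBKE, CXCL1, CXCL2, CXCL5, CXCL6, CCL2, LTB, TNFRSF9 and TNFAIP2 did not. None of the 28 was past 2-fold, where 0.54% of the 14456 genes examined were higher and 0.394% lower. At 1.5-fold, RELB, BIRC3 and TNFRSF9 rose in Huh7 (3 of 34, with 2.8% of all genes) and LTB fell (1 of 34, with 2.68% of all genes). CXCL8 and ICAM1 rose in HepG2 (2 of 28, with 2.56% of all genes), and none of the 28 fell by that much (1.87% of all genes). Of the 26 genes that passed in both lines, 0 rose and 0 fell by 1.5-fold in both, where 0.351% and 0.493% of the 11970 genes examined did. None moved past 1.5-fold in opposite directions.

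Most differences were small and above 0. The median log2 fold change of the list was 0.13 in Huh7 and 0.15 in HepG2, against −0.00083 and −0.0080 over all genes examined. It was above 0 for 25 of 34 genes in Huh7 (73.5%) and for 20 of 28 in HepG2 (71.4%), where 49.9% and 48.3% of all genes were above 0. BIRC3 and CXCL3 entered the HepG2 count, and TNFRSF9 the Huh7 count, only through their level with COP1-siRNA, and LTB entered the Huh7 count only through its level with NC-siRNA. These members had to differ in that direction.

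**Figure D1:**
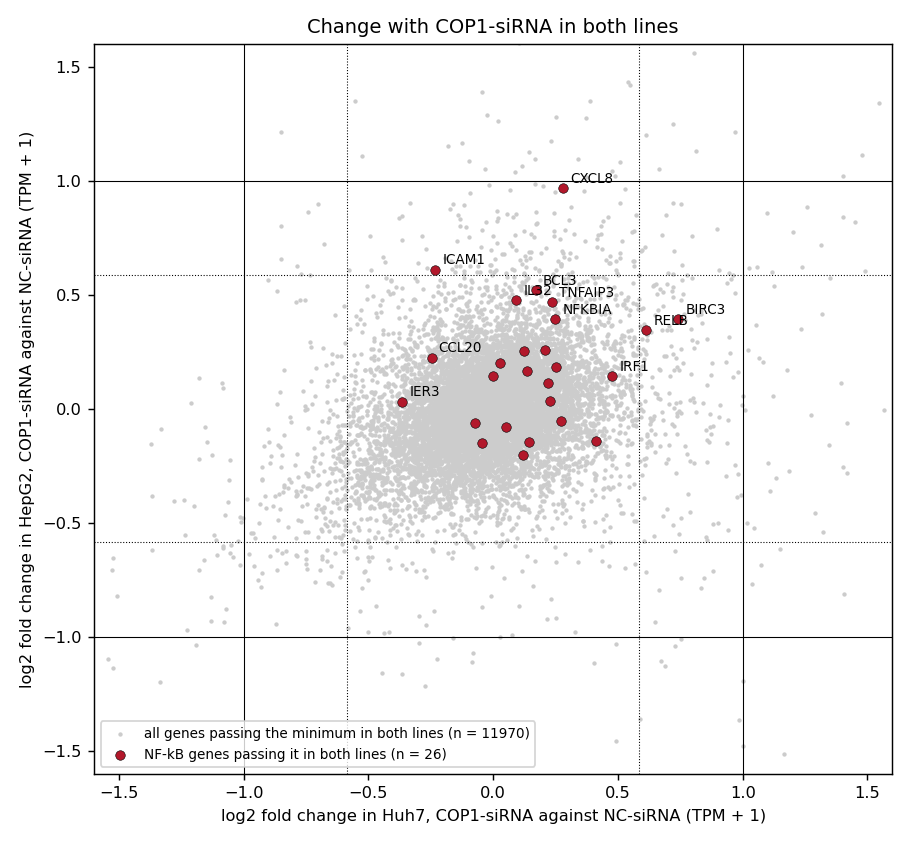
Log2 fold change with COP1-siRNA in Huh7 (horizontal axis) and HepG2 (vertical axis) for the 26 NF-kB genes that passed the minimum in both lines (red) and all 11970 genes that did (grey, a few beyond the axes). Solid lines mark 2-fold and dotted lines 1.5-fold. CXCL8 lies nearest to 2-fold in HepG2 at 0.97, RELB and BIRC3 lie past 1.5-fold in Huh7, and none lies in a corner past 1.5-fold in both.

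Among the subunits, RELB alone passed 1.5-fold, in Huh7. RELB (NCBI Gene 5971, chr19:45001449-45038194), the transcription-activating subunit of the alternative NF-kB pathway, measured 14.0 TPM with NC-siRNA against 22.0 TPM with COP1-siRNA in Huh7, and it rose by 0.61 on the log2 scale. Its level was 2.36 and 3.27 TPM in HepG2, where the log2 difference of 0.34 is below 1.5-fold. RELB was thus the higher with COP1-siRNA in each line, and both Huh7 libraries lay above both HepG2 libraries. RELA, the main activating subunit of the canonical pathway, was at 65.0 TPM in both Huh7 libraries and at 72.3 and 80.0 TPM in HepG2. NFKB1, which encodes the usual partner of RELA, was at 42.5 and 50.7 TPM in Huh7 and 21.0 and 24.0 TPM in HepG2. NFKB2, whose product partners RELB, was at 20.3 and 23.6 TPM in Huh7 and 10.4 and 12.6 TPM in HepG2. The differences with COP1-siRNA for these 3 genes were between 0.00 and 0.26 on the log2 scale, none past 1.5-fold. REL, the subunit best known from lymphocytes, was the lowest of the canonical subunits at 3.21 and 2.998 TPM in Huh7 and 4.81 and 4.57 TPM in HepG2.

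The IkB family showed no member past 1.5-fold in either line. NFKBIA, which encodes IkB-alpha and is itself switched on by NF-kB, was at 61.7 and 73.5 TPM in Huh7 and 49.4 and 65.1 TPM in HepG2, log2 differences of 0.25 and 0.39. NFKBIB, encoding IkB-beta, was between 38.9 and 43.2 TPM over all 4 libraries. NFKBIE, encoding IkB-epsilon, was at 7.03 and 8.40 TPM in Huh7 and 6.44 and 6.62 TPM in HepG2. These 3 cytoplasmic inhibitors were therefore at like TPM in both lines. The nuclear members were not. NFKBIZ, a nuclear IkB protein that takes part in the induction of secondary inflammatory genes, was at 21.3 and 23.6 TPM in Huh7 and at 3.30 and 2.89 TPM in HepG2. BCL3, a nuclear IkB protein that acts as a coactivator on NFKB1 and NFKB2 dimers, was at 48.9 and 55.1 TPM in Huh7 and at 3.98 and 6.14 TPM in HepG2. Its log2 difference with COP1-siRNA was 0.52 in HepG2, short of 1.5-fold, and 0.17 in Huh7.

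TNFAIP3, a ubiquitin-editing enzyme that shuts the pathway off and is itself a target gene, was at 8.07 and 9.67 TPM in Huh7 and 5.75 and 8.33 TPM in HepG2, log2 differences of 0.24 and 0.47. Its partner TNIP1, a ubiquitin-binding adaptor, was at 52.2 and 60.9 TPM in Huh7 and 41.7 and 45.1 TPM in HepG2. TNIP2, a related adaptor, was at 46.8 and 51.0 TPM in Huh7 and 21.8 and 18.8 TPM in HepG2. None of the 3 was past 1.5-fold with COP1-siRNA.

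Of the adaptors, ligases and kinase, BIRC3 differed most with COP1-siRNA. BIRC3 (NCBI Gene 330, chr11:102317373-102339403), a ubiquitin ligase of the TNF receptor complex and a classical target, measured 2.86 TPM with NC-siRNA against 5.45 TPM with COP1-siRNA in Huh7, and it rose by 0.74 on the log2 scale. In HepG2 it was at 0.702 and 1.24 TPM, a log2 difference of 0.39. The plain TPM ratio, without the added 1, was 1.91 in Huh7 and 1.76 in HepG2, and the HepG2 values lie at the minimum. Its neighbour BIRC2, a ligase of the same complex that begins 7778 bases further along chromosome 11, was at 16.7 and 20.4 TPM in Huh7 and 24.6 and 23.7 TPM in HepG2, so it did not move past 1.5-fold in either line. TRAF2, the adaptor that recruits both ligases, was between 23.7 and 25.1 TPM in all 4 libraries. IKBKE, a kinase related to the IkB kinases, was at 13.0 and 11.4 TPM in Huh7 and at 0.873 and 0.990 TPM in HepG2. TRAF1, an adaptor and classical target of lymphoid cells, stayed at or below 0.444 TPM.

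**Figure D2:**
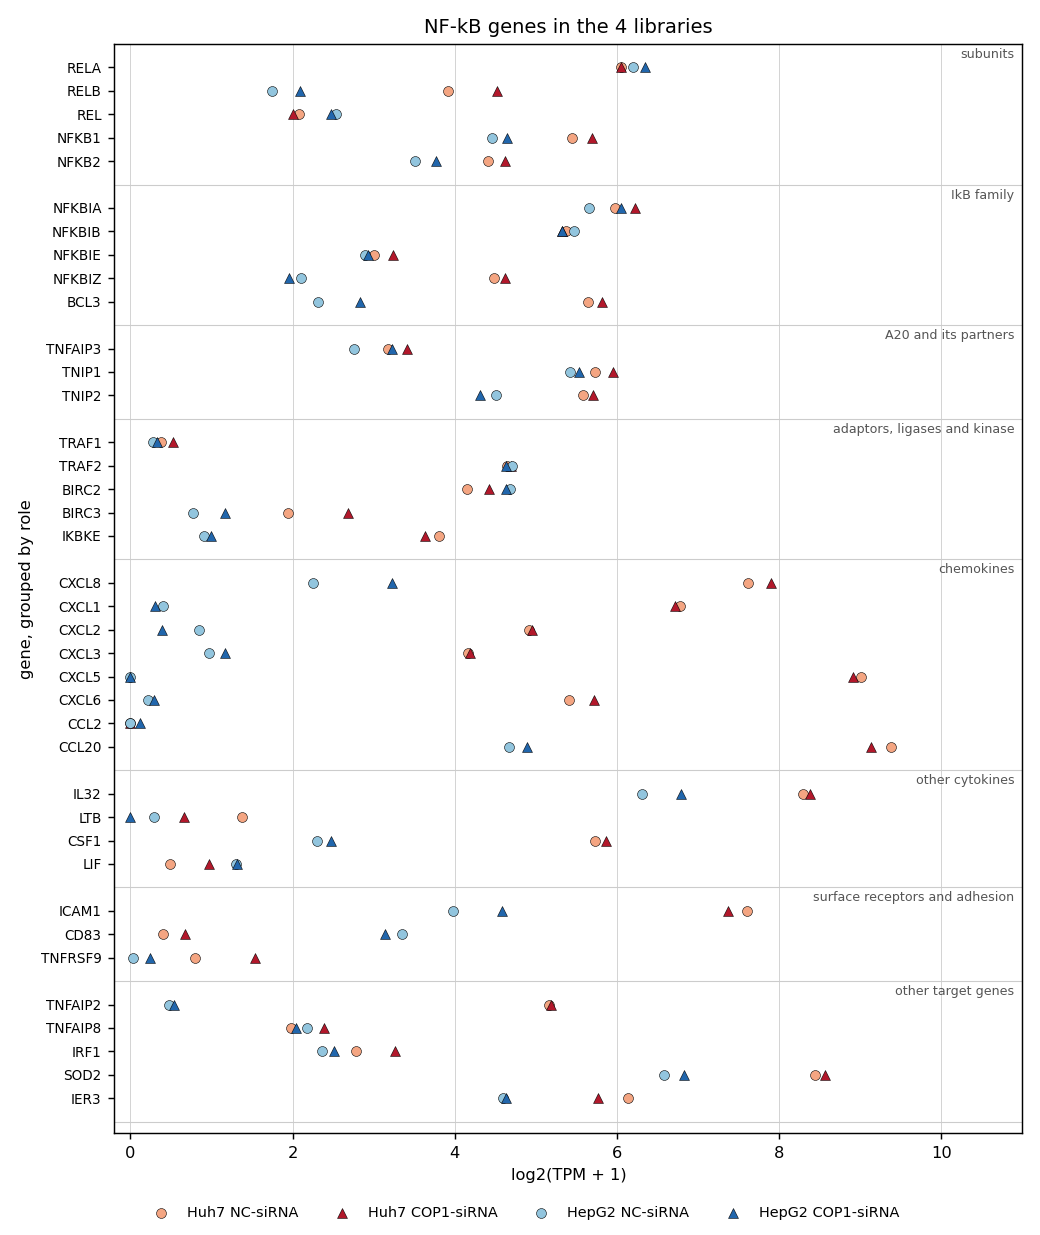
Level of each of the 38 NF-kB genes in the 4 libraries as log2(TPM + 1), grouped by role. Circles are NC-siRNA and triangles COP1-siRNA libraries, red for Huh7 and blue for HepG2. The 2 symbols of a line mostly lie close together, whereas the red and blue symbols of the CXCL genes, CCL20 and TNFAIP2 lie far apart.

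Chemokines formed the group that set the lines apart most. The CXCL chemokines of this list attract neutrophils, and CCL20 attracts dendritic cells and lymphocytes. The 8 chemokine genes summed to 1568 and 1480 TPM in Huh7, and to 30.4 and 39.0 TPM in HepG2. In Huh7, none of the 7 that passed the minimum moved past 1.5-fold with COP1-siRNA. CCL20 (NCBI Gene 6364, chr2:227813842-227817556) was the most abundant gene of the list in Huh7 at 664 and 559 TPM, and was at 24.4 and 28.6 TPM in HepG2. CXCL5 was at 513 and 480 TPM in Huh7 and was listed at 0 in both HepG2 libraries. CXCL8 (NCBI Gene 3576, chr4:73740569-73743716) was at 195 and 237 TPM in Huh7, and in HepG2 at 3.78 TPM with NC-siRNA against 8.33 TPM with COP1-siRNA. CXCL8 thus rose by 0.97 on the log2 scale in HepG2, the gene of the list nearest to 2-fold, with a plain TPM ratio of 2.21. In Huh7 the log2 difference was 0.28, from a level 51.7 times that of HepG2 with NC-siRNA.

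CXCL1 was at 108 and 104 TPM in Huh7 and at 0.317 and 0.229 TPM in HepG2. CXCL6 was at 41.5 and 51.6 TPM in Huh7 and at 0.158 and 0.221 TPM in HepG2. CXCL2 was at 29.2 and 30.02 TPM in Huh7 and at 0.795 and 0.309 TPM in HepG2. All 3 were below the minimum in both HepG2 libraries, so their change there was not examined. CXCL3 was at 16.9 and 17.3 TPM in Huh7 and at 0.955 and 1.25 TPM in HepG2. CXCL1, CXCL2 and CXCL3 are close copies of each other, and how the reads they share were divided is uncertain. CCL2, the monocyte chemokine, was listed at 0 in 3 libraries and reached 0.0873 TPM in the HepG2 COP1-siRNA library.

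The CXCL genes lie together on chromosome 4, at chr4:73740569-74099195 in the coordinates of the tables (GRCh38), a stretch of 358.6 kb with 14 genes. Their order is CXCL8, CXCL6, CXCL1, CXCL5, CXCL3 and CXCL2. The 8 other genes of the stretch reached at most 0.275 TPM in any library, and the 6 CXCL genes were the ones at or above 1 TPM in Huh7. Within the stretch the levels in Huh7 ranged from 16.9 TPM for CXCL3 to 513 TPM for CXCL5 with NC-siRNA. CXCL5 and CXCL6, whose promoter windows above read nearly alike, differed in level within Huh7.

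**Figure D3:**
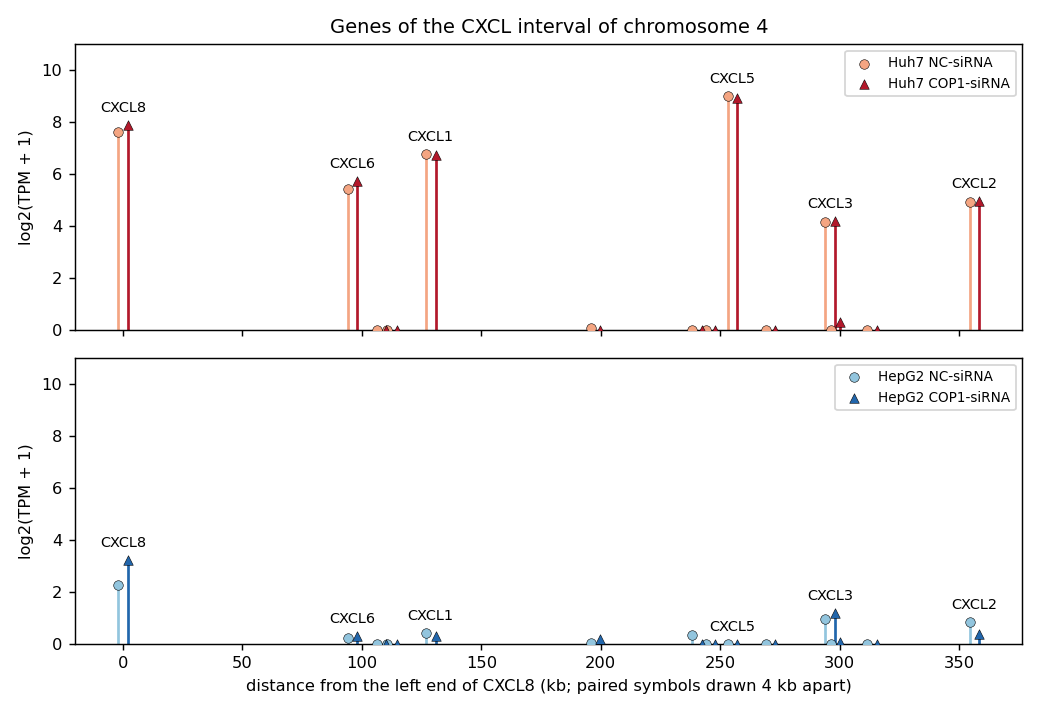
Level as log2(TPM + 1) of the 14 genes of the CXCL stretch of chromosome 4 against distance in kb from the left end of CXCL8, Huh7 above and HepG2 below, with circles for NC-siRNA and triangles for COP1-siRNA. In Huh7 the 6 CXCL genes stand at 16.9 TPM or more and the other 8 near 0. In HepG2, CXCL8 stands highest at 3.78 and 8.33 TPM.

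Of the other cytokines, IL32, a cytokine gene induced in liver inflammation, was at 312 and 332 TPM in Huh7 and 78.5 and 110 TPM in HepG2, log2 differences of 0.09 and 0.48. CSF1, the growth factor of macrophages, was at 51.8 and 57.0 TPM in Huh7 and 3.93 and 4.53 TPM in HepG2. LTB (NCBI Gene 4050), which encodes lymphotoxin beta, a ligand of the alternative pathway, measured 1.59 TPM with NC-siRNA against 0.575 TPM with COP1-siRNA in Huh7. It fell by 0.72 on the log2 scale, at a level where the coverage was 4.04 and 1.72 reads per base, and in HepG2 it was at 0.226 TPM and listed at 0. LIF, a cytokine of the interleukin-6 family, was at 0.400 and 0.956 TPM in Huh7 and at 1.47 and 1.49 TPM in HepG2. LTB and LIF thus stayed below 2 TPM everywhere, and IL32 is the most abundant of these 4 in both lines.

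ICAM1 (NCBI Gene 3383, chr19:10271120-10286615), the adhesion molecule that leukocytes bind, measured 14.7 TPM with NC-siRNA against 23.0 TPM with COP1-siRNA in HepG2, and it rose by 0.61 on the log2 scale. In Huh7 it was at 194 and 165 TPM, a log2 difference of −0.23. The direction thus differed between the lines, although the Huh7 value is below 1.5-fold and the difference between the lines was not tested. TNFRSF9, a co-stimulatory receptor of the TNF receptor family, was at 0.737 and 1.90 TPM in Huh7 and rose by 0.74. Its coverage there was 0.643 and 1.94 reads per base, and in HepG2 it was at 0.0223 and 0.181 TPM. CD83, a surface protein known from mature dendritic cells, went the other way between the lines, at 0.325 and 0.593 TPM in Huh7 and 9.19 and 7.84 TPM in HepG2.

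The other target genes stayed below 1.5-fold with COP1-siRNA. SOD2, the manganese superoxide dismutase of mitochondria, was at 347 and 378 TPM in Huh7 and 94.4 and 113 TPM in HepG2. IER3, an early response gene of survival signalling, was at 69.1 and 53.4 TPM in Huh7 and 23.1 and 23.7 TPM in HepG2, and its log2 difference of −0.37 in Huh7 was the lowest of the genes above 5 TPM. IRF1, a transcription factor of the interferon response, was at 5.89 and 8.59 TPM in Huh7 and 4.15 and 4.70 TPM in HepG2. It came closest to 1.5-fold among the 5, at 0.48 in Huh7. TNFAIP2, a TNF-induced gene of membrane protrusions, was at 34.8 and 35.5 TPM in Huh7 and at 0.390 and 0.453 TPM in HepG2. TNFAIP8, a TNF-induced regulator of cell death, was at 2.94 and 4.24 TPM in Huh7 and 3.52 and 3.10 TPM in HepG2.

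Between the lines, 19 of the 36 genes that passed the minimum (52.8%) were at least 2-fold higher in Huh7 than in HepG2 with both siRNAs, where 12.2% of the 15486 genes examined were. Only CD83 was at least 2-fold higher in HepG2 (1 of 36, 2.78%, where 22.4% of all genes were). The 19 were RELB, NFKBIZ, BCL3, TNIP2, BIRC3, IKBKE, the 6 CXCL genes, CCL20, IL32, CSF1, ICAM1, TNFAIP2, SOD2 and IER3. CXCL1, CXCL2, CXCL5, CXCL6, IKBKE and TNFAIP2 among them passed the minimum only through the Huh7 libraries, and CD83 only through those of HepG2, so they had to differ in that direction. The median log2 difference, Huh7 minus HepG2, was 1.13 with NC-siRNA and 1.34 with COP1-siRNA, against −0.36 and −0.35 over all genes. LTB and TNFRSF9 also entered this median only through Huh7 and LIF only through HepG2, so the minimum in part fixed their direction. Median-of-ratios scaling moved the median over all genes to −0.06 with either siRNA, so the values of the list stand against those medians and not against 0. With that scaling 21 genes of the list were higher in Huh7 and 1 in HepG2, and of all called genes 48.9% were higher in Huh7 in place of 35.1%.

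With NC-siRNA the widest differences were those of CXCL5 at 9.004, CXCL1 at 6.38, CXCL8 at 5.36, CXCL6 at 5.20, CCL20 at 4.71 and TNFAIP2 at 4.69 on the log2 scale. With COP1-siRNA the same genes, in this order, were at 8.91, 6.42, 4.67, 5.43, 4.24 and 4.65, and CXCL2 at 4.57 stood above CCL20. The difference of each of these 6 genes was above 4 on this scale in both comparisons. CXCL5 has no fold, because HepG2 was listed at 0. The 5 subunits fell into a narrower range, with RELA at −0.15, REL at −0.47, NFKB2 at 0.90, NFKB1 at 0.98 and RELB at 2.16 with NC-siRNA. NFKBIA, NFKBIB and NFKBIE were between −0.09 and 0.31, where the median over all genes was −0.36. Of the subunits and inhibitors, RELB, NFKBIZ and BCL3 were past 2-fold with both siRNAs. NFKB1, just short of it with NC-siRNA, and NFKB2 lay above the median over all genes by more than the 2-fold step, and both passed with median-of-ratios and upper-quartile scaling.

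**Figure D4:**
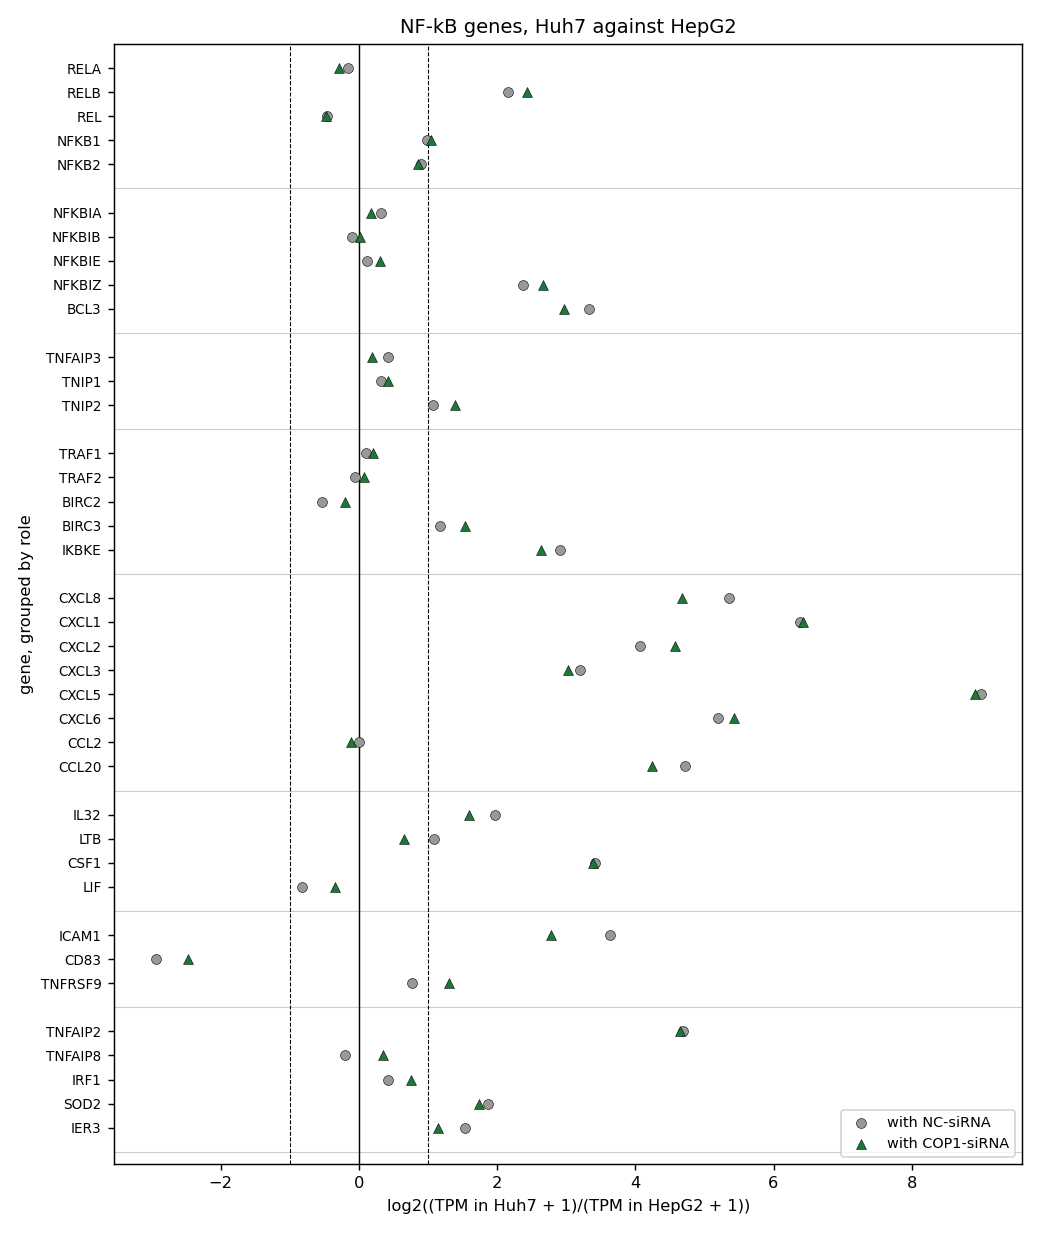
Difference in level between the lines, log2((TPM in Huh7 + 1)/(TPM in HepG2 + 1)), for each of the 38 genes with NC-siRNA (grey circles) and COP1-siRNA (green triangles). Dashed lines mark 2-fold. CXCL5 lies farthest right at 9.004 and 8.91, CD83 farthest left at −2.94 and −2.47, and RELA, REL and the inhibitors NFKBIA, NFKBIB and NFKBIE lie near 0.

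Markers of other cell types did not follow the lines in one way. Of 7 leukocyte markers, PTPRC, CD3E and CSF1R were listed at 0 in all 4 libraries, and the summed level of the 7 was 149 and 121 TPM in Huh7 and 193 and 150 TPM in HepG2, nearly all of it LYZ. The 4 endothelial markers summed to 5.08 and 7.36 TPM in Huh7, all of it PECAM1, and to 0.275 and 0.416 TPM in HepG2. The 5 stellate cell and fibroblast markers summed to 0.623 and 0.557 TPM in Huh7 and to 3.01 and 3.71 TPM in HepG2. The summed hepatocyte markers, PECAM1 and the leukocyte marker CD14 (4.47 and 2.24 TPM in Huh7 against 0.323 and 0.563 TPM in HepG2) were higher in Huh7 together with the chemokines, and their part in the difference was not tested. Not every hepatocyte marker was: APOA1 was at 234 and 212 TPM in Huh7 and 234 and 317 TPM in HepG2. As RNA was pooled from each culture, more cells expressing a gene and more RNA per cell cannot be told apart.

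Promoter matches were set beside the levels. Of the 16 genes with the consensus in their promoter, 9 were at least 2-fold higher in Huh7 with both siRNAs and 0 in HepG2, with a median log2 difference of 1.58 with NC-siRNA, where 12.2% and 22.4% of all genes were called in these directions. CXCL1, CXCL2, CXCL5 and CXCL6 among the 9 passed the minimum only through Huh7, as did LTB and TNFRSF9 among the rest of the 16. Of the 16 without it, 15 passed the minimum, 7 were higher in Huh7 and 1 in HepG2, and the median was 0.90. IKBKE and TNFAIP2 among the 7 passed only through Huh7, and the 1 higher in HepG2, CD83, only through HepG2. With COP1-siRNA in Huh7 the median log2 fold change was 0.12 in both sets. In HepG2 it was 0.21 over the 10 genes with the consensus that passed and 0.11 over the 13 without it. BIRC3 and CXCL3 among the 10 passed the minimum there only through the COP1-siRNA library, so they had to be above 0. CXCL8 and ICAM1, the 2 genes that rose in HepG2, had no match to the full consensus, and BIRC3, TNFRSF9 and LTB, past 1.5-fold in Huh7, had one. The lack of a full match does not show that a promoter lacks a binding site. RELB, the other gene past 1.5-fold in Huh7, has no promoter entry, and TNFRSF9 and LTB passed the minimum only through the library in which they were high. Genes of the CXCL stretch are neighbours with related promoters and are not independent members of these sets.

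A further 61 genes of the pathway were examined for context: receptors, receptor adaptors, kinases, further brakes, ligands and further targets. In each line 43 of them passed the minimum. Of the 40 that passed in both lines, 1 gene fell past 1.5-fold in both, where 0.493% of all genes did. It was FADD, the death-domain adaptor that joins death receptors to caspases. FADD went from 51.9 to 22.7 TPM in Huh7 (log2 fold change −1.16) and from 35.7 to 22.2 TPM in HepG2 (−0.66). FADD was also the 1 gene of the 43 past 2-fold in Huh7, where 0.446% of all genes were lower and 0.638% higher. SDC4, a syndecan of the cell surface and a target gene, rose by 1.10 on the log2 scale in HepG2, from 35.6 to 77.1 TPM, and was at 207 and 262 TPM in Huh7. SDC4 was the 1 gene of the 43 past 2-fold in HepG2, where 0.54% of all genes were higher and 0.394% lower. Past 1.5-fold in a single line were also TAB3, an adaptor of the kinase complex upstream of the IkB kinases, and CX3CL1, a membrane-bound chemokine, both named after their values were seen. TAB3 fell by 0.82 in Huh7, and CX3CL1 rose by 0.61 in HepG2. Of all genes, 2.68% fell by 1.5-fold in Huh7 and 2.56% rose by it in HepG2. The median log2 fold change of the 43 that passed was 0.03 in Huh7 and −0.03 in HepG2, lower than that of the list of 38 genes in each line.

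By level, TNFRSF1A, the main TNF receptor, was higher in Huh7. It was at 139 and 120 TPM in Huh7 and 47.8 and 45.8 TPM in HepG2. TNFRSF12A, a receptor of the same family, was at 137 and 150 TPM against 19.1 and 28.5 TPM. The ligand genes examined were low. TNF was at or below 1.27 TPM in every library and IL6 at or below 2.29 TPM, and IL6 was listed at 0 in HepG2. Among adaptors, IRAK1, a kinase of toll-like receptor signalling, was higher in HepG2, at 184 and 161 TPM against 79.8 and 63.7 TPM in Huh7, and RBCK1, a subunit of the linear ubiquitin ligase, was at 96.5 and 86.5 TPM in Huh7 and 54.6 and 63.6 TPM in HepG2. CHUK, an IkB kinase, was between 28.9 and 42.3 TPM and TAB2 between 40.6 and 54.3 TPM over the 4 libraries. Of the brakes, COMMD1 was between 21.6 and 35.0 TPM, and ZC3H12A, an RNase that degrades inflammatory transcripts, was at 29.6 and 30.4 TPM in Huh7 and 4.21 and 5.98 TPM in HepG2. BCL2L1, a survival gene, was at 258 and 232 TPM in Huh7 and 44.6 and 53.0 TPM in HepG2. In all, 13 of the 46 of these genes that passed were at least 2-fold higher in Huh7 with both siRNAs (28.3%, where 12.2% of all genes were) and 3 in HepG2 (6.52%, where 22.4% of all genes were). None of the 10 genes of the kinase list was among them. Of the called genes, IL6 and CXCL10 passed the minimum only through Huh7, and CD40 and PTGS2 only through HepG2. These had to differ in that direction, and CXCL10, CD40 and PTGS2 are named for that reason alone.

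**Figure D5:**
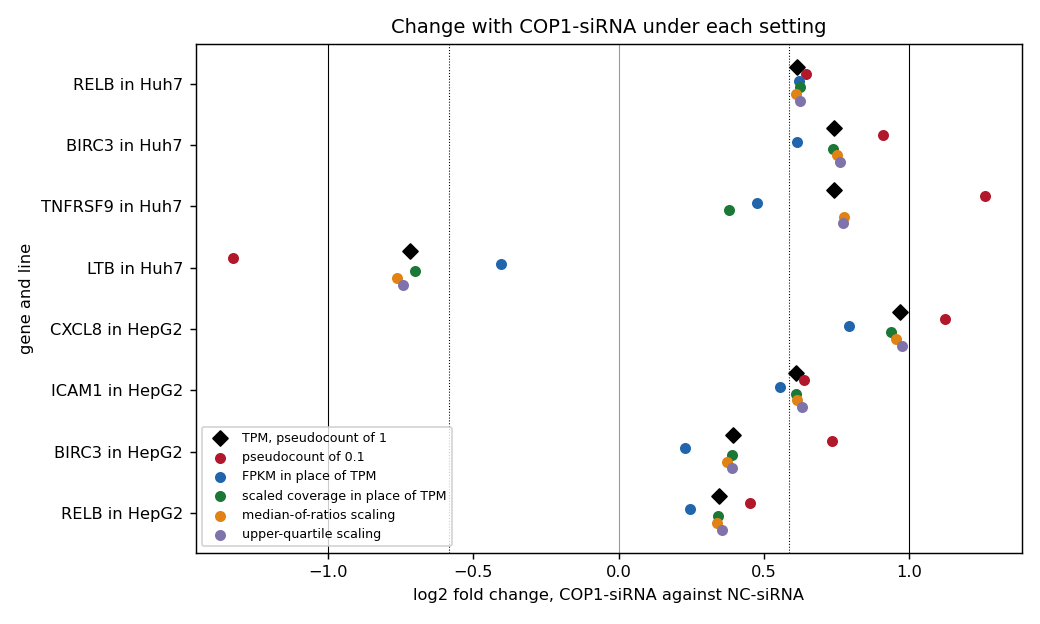
Log2 fold change with COP1-siRNA of the 6 gene and line pairs past 1.5-fold, and of BIRC3 and RELB in HepG2, under 6 settings. Solid lines mark 2-fold and dotted lines 1.5-fold. RELB and BIRC3 in Huh7 stay past 1.5-fold under all 6, whereas LTB and TNFRSF9, at about 1 TPM, spread from −1.33 to −0.40 and from 0.38 to 1.26.

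Limits to single genes were of the following kinds. On the same strand, NFKBIZ overlaps NXPE3 and SOD2 overlaps SOD2-OT1, which were themselves at or above 1 TPM in some library, so reads of these pairs may have been divided. With a pseudocount of 0.1 in place of 1, CXCL8 in HepG2 and LTB and TNFRSF9 in Huh7 passed 2-fold, and BIRC3 rose past 1.5-fold in both lines, at 0.91 and 0.74. With FPKM in place of TPM, ICAM1 in HepG2 came to 0.55 and LTB and TNFRSF9 in Huh7 to −0.40 and 0.48, all short of 1.5-fold.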

How the data were processed

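RNA of Huh7 and HepG2 cells, 48 h after transfection with NC-siRNA or COP1-siRNA, was sequenced as 4 stranded mRNA libraries, which were assigned to line and siRNA by their labels. The submitters' processing notes name FastQC 0.11.7, Trimmomatic 0.38, HISAT2 2.1.0, StringTie 2.1.3b, edgeR without a version, and the GRCh38 build. The annotation is not given in the sources used here. The authors deposited 1 gene table per library. TPM, as the authors computed it, corrects for gene length and sums to 1000000 per library. The FPKM deposited by the authors is normalized for length and depth, and the deposited coverage gives the mean read depth over the bases of a gene and is not scaled for library depth. The tables hold no read counts, so no count model, interval or detection limit could be given.

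The gene name column held no symbols. Genes were therefore matched by NCBI Gene number, and 44698 of 46427 numbers (96.3%) were found in RefSeq, all 38 members among them. The values of 52 numbers that stood on several lines were summed, none of them a member. The genes, role lists, thresholds and alternatives were chosen with earlier results of these data known. Every gene of the list was named. Other pathway genes were named if past 1.5-fold in the same direction in both lines, past 2-fold in 1 line, or with 1 of the 2 highest TPM of their list. Fold changes used a pseudocount of 1 and a minimum of 1 TPM in at least 1 library of the comparison. A gene was called different between lines if at least 2-fold apart in the same direction with each siRNA. With 1 library per condition no test was run. The computation was tested on simulated data. Alternatives were a pseudocount of 0.1, FPKM, scaled coverage, median-of-ratios and upper-quartile scaling, no minimum, a minimum of 5 TPM, and other fold thresholds. Python 3.11.15, numpy 2.4.6, pandas 2.3.3 and matplotlib 3.10.9 were used.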

Additional observations from a re-analysis of the deposited data

How the results depend on the processing

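With a pseudocount of 0.1, 2 members passed 2-fold in Huh7 (LTB at −1.33 and TNFRSF9 at 1.26 on the log2 scale), 1 passed it in HepG2 (CXCL8 at 1.12) and 1 changed by 1.5-fold in both lines (BIRC3), where the pseudocount of 1 gave 0, 0 and 0. At a 1.5-fold threshold, 4 members passed in Huh7 and 2 in HepG2. The median fold change of the list kept its sign under every alternative run, and the count of genes different between the lines was 18 to 24 against 20, with TNIP2 and BIRC3 no longer among them with FPKM. Of 310 values of single genes under the alternatives, 288 stayed on their side of 1.5-fold and within 0.1 of their value. The 288 include all 62 values with median-of-ratios and all 62 with upper-quartile scaling. Each of these scalings applies the same factor to all genes of a library, so these values had little room to move. Of the values past 1.5-fold to begin with, 0 changed sign, and smaller values were not checked for sign. Another 16 stayed on their side and moved further, and 2 newly passed 1.5-fold (BCL3 and BIRC3 in HepG2 with a pseudocount of 0.1). A further 4 no longer passed it: LTB and TNFRSF9 in Huh7 and ICAM1 in HepG2 with FPKM, whose smaller values make the added 1 weigh more, and TNFRSF9 with scaled coverage, where the cause was not tested. Without read counts, the precision of genes near 1 TPM is unknown. A fit of the siRNA with the line as a block, which would leave 1 residual degree of freedom, was not run. No replicate could be left out, because each condition had a single library.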
